A study of Mus musculus with 12 samples.

Results

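The SOX transcription factors described here are 10 genes of the read count table, Sox2, Sox3, Sox4, Sox5, Sox9, Sox11, Sox12, Sox15, Sox18 and Sox21, of 24495 genes in all. They were chosen by symbol as members of the family outside the endoderm factors Sox7 and Sox17, not by their values, and 10 of 10 had enough reads to be tested. RNA-seq was made from CCE-Nanog-GFP mouse embryonic stem cells (mESCs), a line whose GFP reports the pluripotency gene Nanog, and GFP+ cells were sorted before the experiments. Lines shSC and shCTSL were made from them, each transduced with a lentiviral shRNA construct and selected with puromycin. The control shSC carries a scrambled shRNA (its libraries are labelled scr or WT), and shCTSL carries an shRNA in pLKO.1 against Ctsl, which encodes the protease cathepsin L (labelled KD). Day 0 stands for mESCs before differentiation, and Day 2 and Day 4 for embryoid bodies kept 2 or 4 days in medium with 10 µM all-trans retinoic acid and no LIF, with 2 replicates in each of 6 groups. The knockdown is represented by 1 shRNA line, so an effect of the line or its shRNA cannot be told apart from one of cathepsin L. Because the RNA is from whole cultures, fewer cells that express a gene and less RNA per cell cannot be told apart.

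SOX proteins bind the minor groove of DNA through an HMG box and bend it, usually next to a partner factor that helps to select the target. They are grouped by the likeness of this box. Sox2 and Sox3 (SOXB1) are activators of pluripotent and neural progenitor cells, Sox21 (SOXB2) is a repressor that opposes them, and Sox4, Sox11 and Sox12 (SOXC) are activators of progenitors and early neurons. Sox5 (SOXD) lacks an activation domain of its own and works with Sox9 (SOXE), the main regulator of cartilage, which also acts in neural crest. Sox18 (SOXF) acts in endothelium and Sox15 (SOXG) in stem cells, placenta and muscle. In mESCs the SOX2 protein works with OCT4 on shared composite sites, and retinoic acid drives exit from this state.

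The 12 libraries hold 11171111 to 27155553 counts each. Levels are normalized CPM, counts scaled to the library total times its TMM factor, and are given as the mean ± SD of 2 libraries. Fold changes, SE and adjusted p come from the quasi-likelihood test of edgeR, fitted to all 12 libraries and 15532 genes. Called means past both limits, 0.05 for the adjusted p and 1.5-fold (0.585 on the log2 scale) for the change. Ctsl itself was lower in both shCTSL libraries than in both shSC libraries on each day, with log2 fold changes of −1.89, −1.06 and −0.83 at Day 0, Day 2 and Day 4, the last of these not called. The summed level of 6 embryonic stem cell markers (Pou5f1, Nanog, Zfp42, Esrrb, Klf4, Tdgf1) was 4580 to 4950 CPM in the 4 Day 0 libraries and 207 to 250 CPM in the 4 Day 4 libraries, with none of the 6 under 1 CPM. The pair of shCTSL Day 2 libraries was less alike than the pairs of the other 5 groups (SD of the log2 ratio 0.604, against 0.178 to 0.269). The fold changes of the SOX genes below were also computed with either library of this pair left out. No library was left out for the other genes, the marker sums, the ratios between genes or the correlations. Replicate 1 of this pair had 3.43% of its counts on the ribosomal RNA gene Rn45s, against 0.17% to 1.43% in the other 11 libraries, and its counts ran lower with gene length, by −0.239 on the log2 scale per doubling of exonic length, against −0.119 to 0.155. Their part in the Day 2 values of shCTSL was not tested beyond leaving it out and the length offsets.

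Most of the family moved between Day 0 and Day 2. In shSC 8 of 10 SOX genes were called, 6 higher and 2 lower at Day 2, against 54.6% of all genes tested (29.3% higher, 25.3% lower). In shCTSL 9 of 10 were called, 6 higher and 3 lower, against 55.5% (30.9% higher, 24.6% lower). Sox3, Sox4, Sox5, Sox9, Sox11 and Sox18 were the 6 that rose in each line, and Sox2 and Sox15 fell in each line, with Sox21 also lower in shCTSL. The median log2 fold change of the 10 genes was 2.45 in shSC and 2.58 in shCTSL, beside 0.02 and 0.08 over all genes tested. Sox5 had no count in shCTSL at Day 0, and with its change set by a limit of 3 counts there the shCTSL median was also 2.58.

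The second step moved fewer of them. From Day 2 to Day 4, 7 of 10 were called in shSC, 4 higher and 3 lower, against 23.8% of all genes (11.4% higher, 12.4% lower), and 6 of 10 in shCTSL, 3 higher and 3 lower, against 23.4% (11% higher, 12.4% lower). Sox5 and Sox9 rose again and Sox12 rose in each line, Sox11 was called in shSC alone, and Sox2, Sox3 and Sox15 fell in each line. The median was 0.12 in shSC and 0.42 in shCTSL, beside 0.02 and −0.02 over all genes. Over the whole course, 8 of 10 were called in shSC (6 higher and 2 lower, against 60.7% of all genes, 32.1% higher and 28.7% lower) and 9 of 10 in shCTSL (6 higher and 3 lower, against 59.9%, 32.3% higher and 27.6% lower), with medians of 1.72 and 1.97 beside 0.03 and 0.06.

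**Figure D1:**
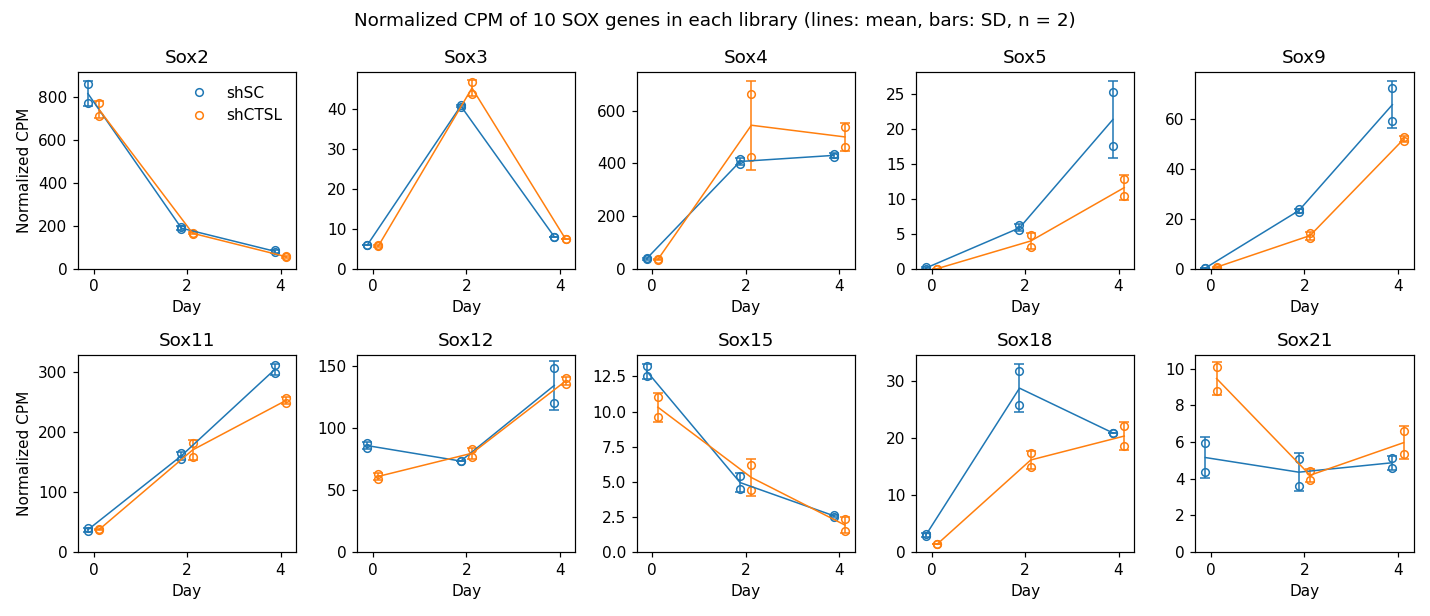
Normalized CPM (y axis, linear from 0, a scale for each gene) of the 10 SOX genes against day (x axis), with each circle 1 library, lines through the means and bars for the SD of 2 libraries, shSC in blue and shCTSL in orange. Sox2 and Sox15 step down on each day, Sox3 peaks at Day 2, and Sox9 and Sox11 climb on each day, with Sox18 higher in both shSC than in both shCTSL libraries at Day 2 (25.7 and 31.7 against 17.3 and 14.9 CPM).

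Promoter sequences of the pair that fell on each step, Sox2 and Sox15, and of 2 SOXC genes that rose at Day 2, Sox4 and Sox11, are shown to set the genes beside each other. Each line gives the 250 bases before the RefSeq start on mm9, 5′ to 3′ on the gene's strand. Capitals mark matches on either strand to CCAAT (the CCAAT box), GGGCGG (the GC box) and AGGTCA (a nuclear receptor half-site, the kind that retinoic acid receptors read).
Sox2, chr3:34548667-34548916, strand +: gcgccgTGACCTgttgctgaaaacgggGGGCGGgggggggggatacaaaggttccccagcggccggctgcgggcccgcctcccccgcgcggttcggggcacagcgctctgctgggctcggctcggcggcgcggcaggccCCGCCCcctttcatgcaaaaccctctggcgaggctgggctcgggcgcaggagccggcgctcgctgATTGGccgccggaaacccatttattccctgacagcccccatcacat
Sox15, chr11:69468289-69468538, strand +: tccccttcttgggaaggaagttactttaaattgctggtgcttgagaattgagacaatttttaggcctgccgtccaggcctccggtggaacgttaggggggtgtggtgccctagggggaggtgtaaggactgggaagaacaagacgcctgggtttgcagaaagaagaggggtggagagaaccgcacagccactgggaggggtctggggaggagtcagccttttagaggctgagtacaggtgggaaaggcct
Sox4, chr13:29045569-29045818, strand -: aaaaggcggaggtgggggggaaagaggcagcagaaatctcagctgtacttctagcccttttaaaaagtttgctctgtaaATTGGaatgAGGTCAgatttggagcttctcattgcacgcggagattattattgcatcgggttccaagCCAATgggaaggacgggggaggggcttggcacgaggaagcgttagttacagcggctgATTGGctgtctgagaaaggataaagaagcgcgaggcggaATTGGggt
Sox11, chr12:28027584-28027833, strand -: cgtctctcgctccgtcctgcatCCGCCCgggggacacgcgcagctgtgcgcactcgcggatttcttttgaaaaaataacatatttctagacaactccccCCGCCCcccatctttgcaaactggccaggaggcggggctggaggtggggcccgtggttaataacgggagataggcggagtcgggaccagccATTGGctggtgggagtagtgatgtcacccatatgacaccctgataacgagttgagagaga

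Among the 7 SOX genes with a RefSeq promoter, CCAAT was found in Sox2, Sox4, Sox11 and Sox12 and in 33.8% of 32544 promoters of this length, and GGGCGG in Sox2, Sox11 and Sox12 and in 33.0% of promoters. AGGTCA was found in Sox2, which fell, and in Sox4, which rose, and in 14.0% of promoters. Sox15 held none of these 3. TATAAA (12.3% of promoters) and the SOX core AACAAT (9.34%) were in none of the 7, and the octamer ATGCAAAT (1.62%) was in Sox12. The promoters of Sox2, Sox4, Sox11 and Sox12 had observed over expected CpG of 0.83, 0.80, 0.81 and 1.01, and those of Sox5 and Sox15 0.31 and 0.30, beside a median of 0.38. Matches to letters describe these windows and not binding. Sox5 starts from several promoters, and its RefSeq window is 1 of them. This window, 143895627 to 143895876 on the minus strand, lies inside the gene, far from its annotated 5′ end at 144730497. The CpG value of Sox5 holds for this window only.

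Sox2 (chromosome 3, 34548927 to 34551383 of mm9, 1 exon), the pluripotency and neural progenitor factor, had 775 and 860 CPM in the shSC libraries at Day 0, 183 and 195 at Day 2, and 86.1 and 75.7 at Day 4. The shCTSL libraries had 771 and 714, then 162 and 168, then 52.1 and 59.3 CPM. In the order shSC Day 0, shCTSL Day 0, shSC Day 2, shCTSL Day 2, shSC Day 4 and shCTSL Day 4 no group of libraries overlapped the next. The larger part of the fall lay in the first step, −2.11 in shSC (adjusted p = 2.65e-07, SE 0.12) and −2.17 in shCTSL (adjusted p = 2.35e-07, SE 0.12), followed by −1.22 (SE 0.11) and −1.57 (SE 0.12). Sox2 lies inside an intron of the non-coding gene Sox2ot on the same strand, with which it shares no exonic base and which had 7 to 40 counts per library.

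Sox3 (chromosome X, 58144545 to 58146605, 1 exon), the other SOXB1 activator and a gene of neural progenitors and the pituitary, was called higher in the first step and lower in the second in both lines. The shSC libraries had 5.87 and 5.95 CPM at Day 0, 41.0 and 40.6 at Day 2, and 8.04 and 7.98 at Day 4. The shCTSL libraries had 5.89 and 5.58, then 46.7 and 43.9, then 7.42 and 7.48. All 4 Day 2 libraries stood above the other 8, and the rises of 2.79 (adjusted p = 5.97e-08, SE 0.12) and 2.98 (adjusted p = 4.63e-08, SE 0.12) were followed by falls of −2.35 and −2.60 (SE 0.11 in each line). At Day 4 Sox3 was still above Day 0 in both lines, by 0.44 (adjusted p = 0.00881, SE 0.12) and 0.37 (adjusted p = 0.0229, SE 0.13), under 1.5-fold and not called.

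The relation between the SOXB1 genes changed with it. On the length-scaled level, normalized CPM per kb of exon, Sox2 was 107 to 121 times Sox3 in the 4 Day 0 libraries, 2.90 to 4.02 times at Day 2 and 5.90 to 8.98 times at Day 4. Sox2 stayed the more abundant SOXB1 transcript in each of the 12 libraries.

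Sox21 (chromosome 14, 118632454 to 118636252, 1 exon), the SOXB2 repressor of neural progenitor genes, moved least of the 10 over the whole course in shSC (−0.10). Its shSC libraries had 4.35 and 5.95 CPM at Day 0, 3.62 and 5.08 at Day 2, and 4.596 and 5.13 at Day 4, groups that overlap. In shCTSL it had 8.80 and 10.1 at Day 0, 3.94 and 4.43 at Day 2, and 6.60 and 5.31 at Day 4. Both Day 0 libraries of shCTSL stood above the other 10, and within this line the fall to Day 2 was −1.17 (adjusted p = 0.00126, SE 0.23) and the difference at Day 4 from Day 0 −0.66 (adjusted p = 0.0224, SE 0.22). The first call was lost with limma-voom (−1.15, adjusted p = 0.124), and the second once shCTSL Day 0 replicate 2 (−0.57 and adjusted p = 0.111) or shCTSL Day 4 replicate 2 (−0.51 and adjusted p = 0.144) was left out. An antisense non-coding gene, Gm4675, shares 713 exonic bases with Sox21, and without a stated strand setting in the counting their reads cannot be told apart.

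Among the SOXC genes, which promote progenitor survival and early neuronal genes, Sox4 (chromosome 13, 29040788 to 29045582, 1 exon) made its whole rise in the first step. The shSC libraries had 35.5 and 40.3 CPM at Day 0, 397 and 417 at Day 2, and 436 and 424 at Day 4. The shCTSL libraries had 35.4 and 34.0, then 664 and 425, then 463 and 537.5 CPM. The rise was 3.42 in shSC (adjusted p = 3.56e-07, SE 0.20) and 3.97 in shCTSL (adjusted p = 1.74e-07, SE 0.20), or 10.7- and 15.7-fold, and the second step gave 0.08 (SE 0.18) and −0.12 (SE 0.18), neither of them called. The −0.12 rests on shCTSL Day 2 replicate 1, without which it was 0.21 (adjusted p = 0.0873). Sox4 shares 2616 exonic bases with an antisense non-coding gene, Gm17419, so that its counts are uncertain to that extent.

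Sox11 (chromosome 12, 28025562 to 28027574, 1 exon) rose in both steps. Its shSC libraries had 39.1 and 34.6, then 155 and 165, then 311 and 297 CPM, and its shCTSL libraries 36.1 and 38.2, then 157.5 and 182, then 248 and 257. The first step was 2.12 in shSC (adjusted p = 2.28e-07, SE 0.11) and 2.19 in shCTSL (adjusted p = 1.92e-07, SE 0.11), and the difference between these changes was 0.07 (adjusted p = 0.863, SE 0.16). The second step was 0.93 in shSC (adjusted p = 0.000173, SE 0.11), which is called, and 0.57 in shCTSL (adjusted p = 0.00314, SE 0.11), a 1.49-fold change just under the cutoff. That value was past the cutoff when shCTSL Day 2 replicate 2 (0.68) or shCTSL Day 4 replicate 1 (0.59) was left out, and the difference between the lines, −0.35 (SE 0.15), had an adjusted p of 1.

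Sox12 (chromosome 2, 152219347 to 152223782, 2 exons), the remaining SOXC gene and a weaker activator than the other two, moved late and little. The shSC libraries had 83.7 and 88.0 CPM at Day 0, 73.5 and 73.2 at Day 2, and 121 and 148 at Day 4, and the shCTSL libraries 62.8 and 59.2, then 76.7 and 82.7, then 140.1 and 136. The first step took the lines in opposite directions, with −0.23 in shSC (SE 0.12) and 0.39 in shCTSL (SE 0.12) and no overlap of days in either line, although neither change is called. The second step was called in both, 0.87 in shSC (adjusted p = 0.000372, SE 0.12) and 0.79 in shCTSL (adjusted p = 0.000751, SE 0.12). Over the whole course the rise was 0.65 in shSC and 1.18 in shCTSL, the former lost without shSC Day 4 replicate 2 (0.49, adjusted p = 0.00767).

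Sox4 passed the level of Sox2 between Day 0 and Day 2. Per kb of exon, the ratio of Sox4 to Sox2 was 0.0235 to 0.0244 in the 4 Day 0 libraries. At Day 2 it was 1.11 and 1.10 in shSC and 2.11 and 1.29 in shCTSL, and at Day 4 2.60 and 2.87 in shSC and 4.55 and 4.64 in shCTSL. At each of the later days both shCTSL libraries stood above both shSC libraries in this ratio, for which no test was made.

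Sox9 and Sox5, partners on cartilage genes, were at or near 0 at Day 0. Sox9 (chromosome 11, 112643538 to 112649074, 3 exons) had 5 and 2 counts at Day 0 in shSC and 6 and 7 in shCTSL. It then had 22.8 and 23.9 CPM in shSC and 12.2 and 14.4 in shCTSL at Day 2, and 59.3 and 72.6 in shSC and 51.3 and 52.8 in shCTSL at Day 4. By summed counts Sox9 at Day 2 was 97.3 times its Day 0 level in shSC (95% interval 47.1 to 242) and 23.8 times in shCTSL (95% interval 13.8 to 45.0), intervals that cover counting error only. The second step was 1.5 in shSC (adjusted p = 0.000153, SE 0.17) and 1.96 in shCTSL (adjusted p = 3.89e-05, SE 0.18), so Sox9 rose on each day in each line.

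Sox5 (chromosome 6, 143776945 to 144730497, 15 exons in its longest transcript), which joins Sox9 on cartilage enhancers, had 0 and 3 counts in the shSC libraries and no count in either shCTSL library at Day 0. At Day 2 it had 5.48 and 6.17 CPM in shSC and 3.14 and 4.77 in shCTSL, and at Day 4 25.2 and 17.5 in shSC and 12.8 and 10.3 in shCTSL. The Day 2 level of shSC was 56.3 times that of Day 0 (95% counting interval 19.1 to 275). In shCTSL, with a count of 0 at Day 0, the Day 2 level was 31.3 times an assumed limit of 3 counts over the group. The lower end of its 95% counting interval was 25.2-fold. Sox5 rose again from Day 2 to Day 4, by 1.88 in shSC (adjusted p = 0.00117, SE 0.28) and 1.53 in shCTSL (adjusted p = 0.00492, SE 0.30), the latter lost with limma-voom (1.52, adjusted p = 0.243). An antisense non-coding gene, 4933415D12Rik, shares 1330 exonic bases with it.

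Sox18 (chromosome 2, 181404541 to 181406345, 2 exons), a regulator of arterial and lymphatic endothelium, had 2.75 and 3.22 CPM in shSC and 1.34 and 1.37 in shCTSL at Day 0. At Day 2 it had 25.7 and 31.7 in shSC and 17.3 and 14.9 in shCTSL, and at Day 4 20.9 and 20.8 in shSC and 22.0 and 18.6 in shCTSL. The first step was a rise of 3.26 in shSC (adjusted p = 2.65e-07, SE 0.18) and of 3.56 in shCTSL (adjusted p = 4.19e-07, SE 0.21). After it the shSC libraries fell, with −0.46 (SE 0.15, adjusted p = 0.0418, under 1.5-fold), and the shCTSL libraries had 0.34 (adjusted p = 0.126, SE 0.15), with no overlap of days in either line. Without shSC Day 2 replicate 1 the shSC value of −0.61 (adjusted p = 0.0488) became a call. The difference between these second steps was 0.80 (unadjusted p = 0.00394, adjusted p = 0.959, SE 0.21). It was called once shCTSL Day 2 replicate 1 (0.90) or its partner library (0.69) was left out. The share of all genes called in these 2 fits is not given here.

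Sox15 (chromosome 11, 69468816 to 69470229, 2 exons), whose protein has DNA-binding activity close to that of SOX2 in mESCs, fell on each day. Its shSC libraries had 12.5 and 13.3 CPM at Day 0, 5.41 and 4.47 at Day 2, and 2.52 and 2.64 at Day 4, and its shCTSL libraries 11.04 and 9.59, then 6.22 and 4.38, then 1.52 and 2.31. The steps were −1.38 (adjusted p = 0.000289, SE 0.22) and −0.94 (adjusted p = 0.0137, SE 0.24) in shSC, and −0.98 (adjusted p = 0.00323, SE 0.22) and −1.45 (adjusted p = 0.00189, SE 0.25) in shCTSL. These Day 4 libraries hold 28 to 57 counts of Sox15. The second shSC step lost its call when shSC Day 2 replicate 1 (−0.80), shSC Day 4 replicate 1 (−0.91) or shSC Day 4 replicate 2 (−0.97) was left out, with adjusted p of 0.105, 0.101 and 0.0563. With limma-voom both shCTSL steps lost it (adjusted p = 0.0724 and 0.0902). Sox15 overlaps the opposite-strand gene Mpdu1, with 834 to 2404 counts per library, over 31 exonic bases.

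**Figure D2:**
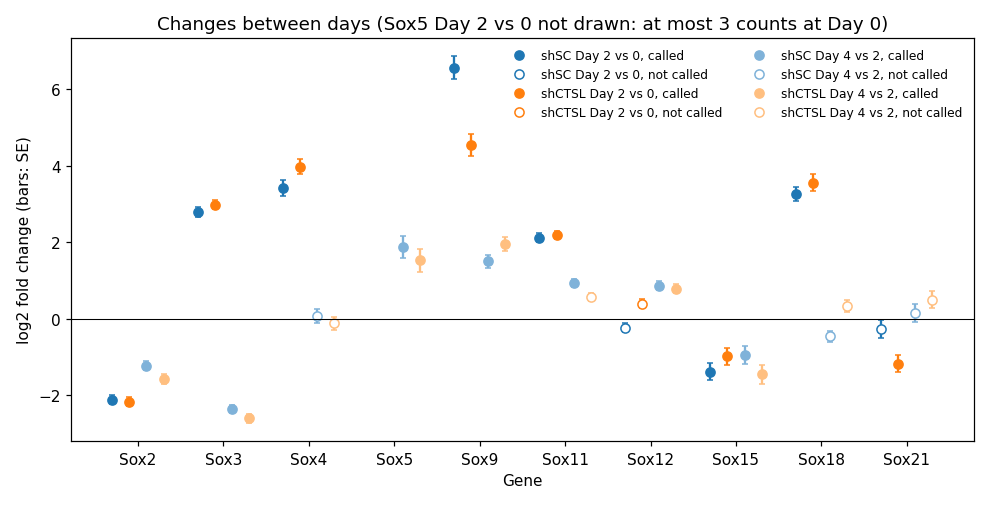
log2 fold change (y axis) of each SOX gene (x axis) from Day 0 to Day 2 and from Day 2 to Day 4 in each line, with bars for the SE, filled points called changed and open points not called. The 2 lines lie side by side for most genes, with the widest gap for Sox9 in the first step (6.56 in shSC, 4.53 in shCTSL). The first step of Sox5 is not drawn, since it had at most 3 counts in a library at Day 0.

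Per kb of exon, the family changed from 1 dominant transcript to several. At Day 0 in shSC, Sox2 stood at 333 CPM per kb, followed by Sox12 (20.6), Sox11 (18.3), Sox15 (15.0), Sox4 (7.91), Sox3 (2.87), Sox18 (1.84), Sox21 (1.35), Sox9 (0.0611) and Sox5 (0.00647), and no gene's libraries overlapped those of the next. The shCTSL order was the same except for Sox11 above Sox12 and Sox21 above Sox18. At Day 2 in shSC the leading genes were Sox4 (84.9), Sox11 (79.5) and Sox2 (76.9), of which Sox11 and Sox2 overlapped, as did Sox18 (17.7) with Sox12 (17.6) and Sox15 (5.73) with Sox9 (5.65). At Day 4 Sox11, scaled by its GENCODE length, led in both lines, with 151 CPM per kb in shSC and 125 in shCTSL, then Sox4 with 89.7 and 104. Sox2 (32.9) and Sox12 (32.2) overlapped in shSC, while in shCTSL Sox12 (33.1) stood above Sox2 (22.7) without overlap. The place of Sox11 rests on its annotated length. GENCODE gives it 2013 bases, while the reads were counted per RefSeq gene, where its span is 8451 bases. With that span its level would be 4.36, 18.9 and 36.0 CPM per kb on the 3 days in shSC. In shCTSL it would be 4.4, 20.1 and 29.9. These values are under Sox4 on each day in both lines, and at Day 2 also under Sox2.

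**Figure D3:**
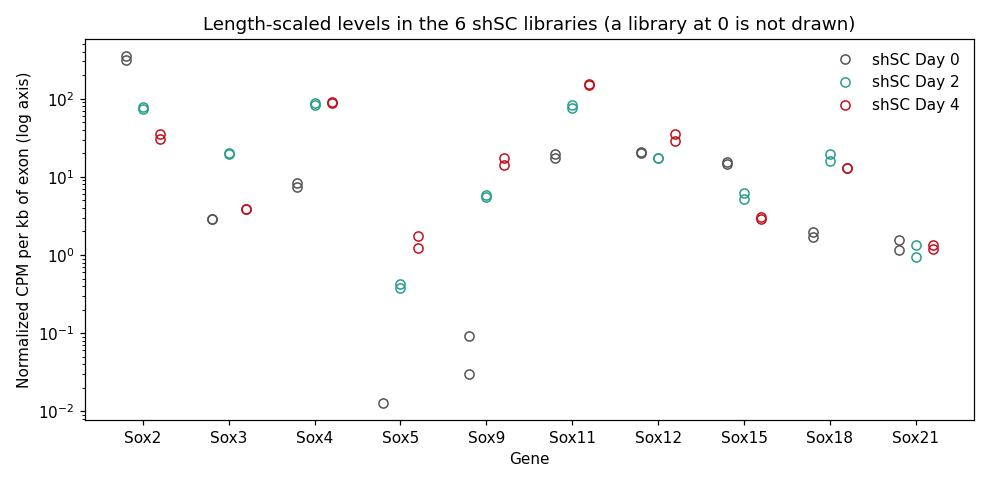
Normalized CPM per kb of exon (y axis, log scale) of each SOX gene (x axis) in the 6 shSC libraries, 1 circle per library, coloured by day. Sox2 stands alone at Day 0 (315 and 350 CPM per kb) and falls to 35.0 and 30.8 at Day 4. Highest there are Sox4 and, scaled by its GENCODE length, Sox11. A library at 0 (Sox5 at Day 0) is not drawn.

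The comparison of shCTSL with shSC asks whether knockdown of cathepsin L alters these levels. On each single day edgeR called none of the 10 SOX genes, against 0.0386% of all genes at Day 0, 0.0644% at Day 2 and 0.0129% at Day 4. At an unadjusted p under 0.05 there were 3 of 10 on each day, against 7.26%, 19.4% and 12.2% of all genes. DESeq2 called 0 at Day 0, 2 at Day 2 (Sox9 and Sox18) and 0 at Day 4. With limma-voom 1 was called at Day 0 (Sox21), 0 at Day 2 and 1 at Day 4 (Sox5). Of all 15532 genes DESeq2 called 48, 125 and 132 on the 3 days, and limma-voom 254, 0 and 723. The median over the 10 genes was −0.13, 0.02 and −0.19 on the 3 days, beside −0.02, 0.02 and 0 over all genes. In the mean over the 3 days 1 of 10 was called, Sox18, lower in shCTSL, against 0.27% of all genes (0.18% lower), with 3 of 10 at an unadjusted p under 0.05 against 22.6%. Differences under 1.5-fold cannot be called by this rule, so a gene not called is not shown to be alike in the 2 lines. With 2 libraries in each group, the libraries of a gene often separate fully by chance alone. Where such a separation is given, it describes the values only, and its share over all genes is not given here.

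Sox18 was lower in both shCTSL libraries than in both shSC libraries at Day 0, with −1.14 (adjusted p = 0.234, SE 0.24), and at Day 2, with −0.83 (adjusted p = 0.131, SE 0.15), while at Day 4 the libraries overlapped and the value was −0.04 (adjusted p = 0.906, SE 0.15). Its Day 0 counts were 36 and 52 in shSC and 18 and 13 in shCTSL. The mean over the days was −0.67 (adjusted p = 0.0421, SE 0.11), or 1.59-fold. The call held when either shCTSL Day 2 library was left out (adjusted p = 0.00141 for replicate 1 and 0.000229 for replicate 2), with DESeq2 (adjusted p = 0.00045) and with limma-voom (adjusted p = 0.0420), and was lost with a replicate block (adjusted p = 0.0771) and without any 1 of the other 10 libraries, where the value was −0.72 to −0.62 and the adjusted p 0.0945 to 0.20.

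No endothelial marker was called between the lines on any day. The summed level of Kdr, Pecam1, Cdh5, Tek, Cldn5 and Tie1 was 96.2 to 98.8 CPM in shSC and 72.3 to 74.0 in shCTSL at Day 0, 195 to 210 and 88.3 to 116 at Day 2, and 332 to 348 and 258 to 316 at Day 4. At Day 2 all 6 had negative values in shCTSL, from −1.29 to −0.19, and 5 had an unadjusted p under 0.05 (19.4% of all genes), against 2 of 6 on each of Day 0 and Day 4 (7.26% and 12.2%). At Day 4 the marker sums did not overlap, while the Sox18 libraries did. Pecam1 made up most of the Day 0 sums, with 83.5 ± 1.43 CPM in shSC and 60.5 ± 2.69 in shCTSL. It was called lower in the first step, by −1.88 in shSC and −2.25 in shCTSL. The other 5 were called higher in each line (29.3% and 30.9% of all genes). Cdh5, a defining gene of the lineage, was under 1 CPM on average at Day 0 in both lines, and so was Cldn5 in shCTSL. The part of these cells in the Sox18 difference was not tested.

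Sox2 was lower in both shCTSL libraries on every day, with −0.14 (SE 0.11) at Day 0, −0.19 (SE 0.11) at Day 2 and −0.54 (unadjusted p = 0.000816, adjusted p = 0.184, SE 0.11) at Day 4. Its mean over the days was −0.29 (adjusted p = 0.0941, SE 0.07). The stem cell marker sum at Day 4 was 216 to 250 CPM in shSC and 207 to 246 in shCTSL, which overlap. Sox9 was lower in both shCTSL libraries at Day 2, with −0.81 (unadjusted p = 0.000955, adjusted p = 0.204, SE 0.17), and at Day 4, with −0.34 (adjusted p = 0.438, SE 0.17). At Day 0, where Sox9 has few counts, the shCTSL level was 2.37 times that of shSC (95% counting interval 0.88 to 7.02). Sox5 had −0.54 (adjusted p = 0.322, SE 0.30) at Day 2 and −0.89 (adjusted p = 0.307, SE 0.28) at Day 4, with both shCTSL libraries below both shSC libraries on each of these days.

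Both shCTSL libraries were higher for Sox9 and Sox21 at Day 0, for Sox3, Sox4 and Sox12 at Day 2, and for Sox4 and Sox21 at Day 4. At Day 0 both were lower for Sox2, Sox4, Sox12, Sox15 and Sox18, and at Day 2 for Sox2, Sox5, Sox9 and Sox18. At Day 4 both were lower for Sox2, Sox3, Sox5, Sox9, Sox11 and Sox15. Sox21 had 0.86 (unadjusted p = 0.00369, adjusted p = 0.354, SE 0.23) at Day 0, −0.04 (SE 0.23) at Day 2 and 0.30 (SE 0.23) at Day 4. Sox4 had 0.42 at Day 2 (adjusted p = 0.247, SE 0.18), with both shCTSL libraries above both shSC libraries but 664 CPM in replicate 1 and 425 in replicate 2. Sox12 at Day 0 was lower in both shCTSL libraries, with −0.49 (unadjusted p = 0.00182, adjusted p = 0.286, SE 0.12). For Sox3, Sox11 and Sox15 the values over the days ran from −0.11 to 0.15, from −0.27 to 0.09 and from −0.42 to 0.08, with an SE of 0.10 to 0.27. The −0.27 is Sox11 at Day 4 (unadjusted p = 0.0313, adjusted p = 0.374), with both shCTSL libraries lower.

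Which of these are called depends on the shCTSL Day 2 libraries, since 1 spread is shared by all groups. Without shCTSL Day 2 replicate 1, the genes past both limits were Sox18 (−1.13) and Sox21 (0.86) at Day 0. At Day 2 they were Sox9 (−0.68) and Sox18 (−0.93), and at Day 4 Sox5 (−0.89). Without replicate 2, the same genes were called at Day 0 and Day 4. Called at Day 2 were then Sox4 (0.70), Sox5 (−0.89), Sox9 (−0.94) and Sox18 (−0.73). In these fits the lone Day 2 library is assumed to vary like the other groups. The share of all genes called in them is not given here, so these calls are no result about the SOX genes. In the fits that leave out 1 of the other 10 libraries none of the 10 was called on a single day.

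**Figure D4:**
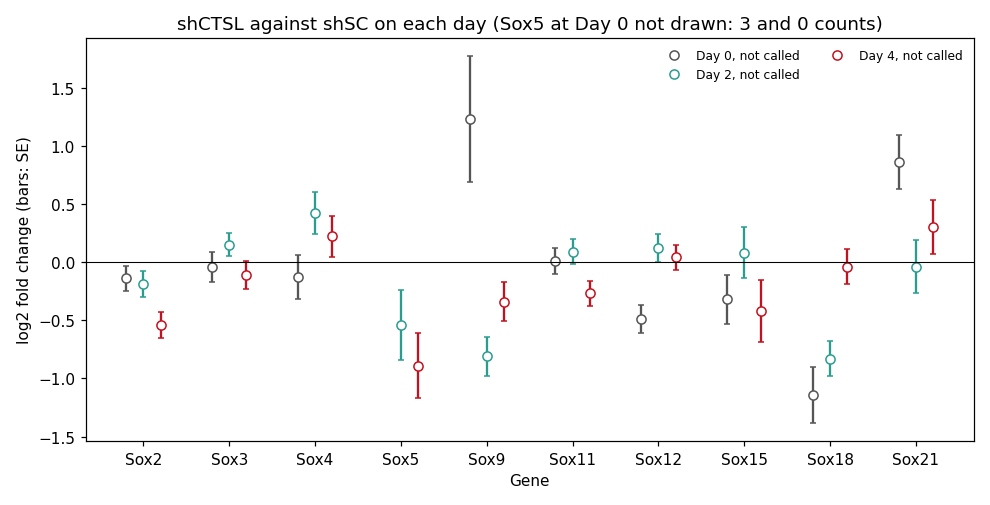
log2 fold change of shCTSL against shSC (y axis) for each SOX gene (x axis) on Day 0, Day 2 and Day 4, with bars for the SE and open points because none is called on a single day. Sox18 lies at −1.14 and −0.83 on Day 0 and Day 2 and at −0.04 on Day 4, and Sox9 and Sox21 have their highest values at Day 0. Sox5 at Day 0 is not drawn, since it had 3 counts in shSC and 0 in shCTSL.

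Whether a change between days itself differed between the lines was tested by the interaction. By edgeR 0 of 10 SOX genes were called for Day 2 against Day 0, for Day 4 against Day 2 and for Day 4 against Day 0 (0%, 0% and 0.00644% of all genes), with 3, 2 and 4 at an unadjusted p under 0.05 (11%, 4.85% and 6.71% of all genes), and DESeq2 and limma-voom called 0 in each. For the first step the values were −2.03 for Sox9 (SE 0.57, unadjusted p = 0.00528), 0.61 for Sox12 (SE 0.16, unadjusted p = 0.00394) and −0.91 for Sox21 (SE 0.32, unadjusted p = 0.0185), each with an adjusted p of 0.39. Sox12 was called without shCTSL Day 2 replicate 1 (0.66), and Sox4 (0.84), Sox9 (−2.16) and Sox21 (−0.98) without replicate 2. The share of all genes called in these fits is not given here. The Sox9 values rest on the 2 to 7 counts per library at Day 0. In the second step, without replicate 2, Sox9 was also called (0.60). For the whole course the unadjusted p was under 0.05 for Sox2 (−0.40), Sox9 (−1.56), Sox12 (0.53) and Sox18 (1.10), with adjusted p from 0.594 to 0.714.

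Of 10 further SOX genes in the table, Sry and Sox14 had too few counts to be tested. In the first step 6 of the other 8 were called higher in shSC (29.3% of all genes) and 7 of 8 in shCTSL (30.9%), with none lower, and medians of 2.12 and 1.87 beside 0.02 and 0.08 over all genes. Sox6, the other SOXD gene, rose from 0.279 ± 0.394 to 33.7 ± 1.66 CPM in shSC and then stood at 17.3 ± 3.70 at Day 4, a second step of −0.96 (adjusted p = 0.0542) that is not called, against a rise of Sox5. Sox13, also SOXD, went from 61.4 ± 0.844 to 132 ± 2.63 and back to 65.9 ± 1.58 CPM, called in both steps. Sox1, the remaining SOXB1 gene, rose late, from 15.0 ± 0.568 and 16.6 ± 2.32 to 44.3 ± 2.04 CPM in shSC, by 1.41 in the second step (adjusted p = 4.92e-05). Between the lines 0 of 8 were called by edgeR on any day or in the mean, with 3, 2, 4 and 3 at an unadjusted p under 0.05 (7.26%, 19.4%, 12.2% and 22.6% of all genes).

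Partner factors of the SOX proteins went in both directions. Of Pou5f1, Nanog, Pou2f1, Pou3f1, Pou3f2, Pou3f3, Pax6 and Chd7, 3 were called higher and 3 lower in the first step in shSC, and 4 and 4 in shCTSL, against 54.6% and 55.5% of all genes called, with medians of 0.08 and 0.01. Pou5f1, the partner of Sox2 in mESCs, changed by −2.73 (adjusted p = 2.46e-06) and then by −1.76 in shSC. Pax6, a partner of Sox2 in the lens and neural tube, peaked at Day 2 as Sox3 did, with 11.02 ± 0.160, 67.4 ± 1.05 and 36.2 ± 8.52 CPM in shSC. Pou3f3 and Pou3f2, neural POU factors that act with SOXB1 and SOXC proteins, rose in both steps, from 0.477 ± 0.0270 to 21.3 ± 2.34 CPM and from 0.345 ± 0.0505 to 14.4 ± 2.81 CPM over the course in shSC. Between the lines none of the 8 was called by edgeR on any day, with 1, 2 and 4 at an unadjusted p under 0.05 (7.26%, 19.4% and 12.2% of all genes).

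Genes with known composite sites for OCT4 and SOX2 (Fgf4, Utf1, Fbxo15, Lefty1, Nanog, Pou5f1) fell with Sox2. In the first step 5 of 6 were called lower and 1 higher in each line (25.3% of all genes lower in shSC and 24.6% in shCTSL), with medians of −2.42 in shSC and −2.36 in shCTSL. In the second step 6 of 6 were called lower in each line (12.4% of all genes in each), with medians of −1.59 and −1.62. Fgf4, a growth factor of the epiblast, went from 320 ± 0.624 to 16.6 ± 0.386 and 6.53 ± 0.894 CPM in shSC, and Utf1, a chromatin factor of mESCs, from 625 ± 36.7 to 46.1 ± 0.392 and 6.92 ± 1.59. Lefty1, an inhibitor of Nodal signalling, was the gene called higher at Day 2, by 1.57 in shSC (adjusted p = 0.000255) and 3.51 in shCTSL (adjusted p = 1.76e-06), before it fell at Day 4. None of the 6 was called between the lines on any day by edgeR, with 1, 2 and 0 at an unadjusted p under 0.05, beside 7.26%, 19.4% and 12.2% of all genes.

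Neural genes downstream of SOXB1 and SOXC proteins were called in both directions. Of Nes, Pax6, Hes5, Fabp7, Notch1, Tubb3, Dcx, Stmn2 and Tead2, all but Hes5 had enough counts to be tested, and of these 8, in the first step 4 were called higher and 3 lower in each line (29.3% higher and 25.3% lower of all genes in shSC, 30.9% and 24.6% in shCTSL), with medians of 0.47 in shSC and 0.80 in shCTSL. Tead2, a target of SOX4 and SOX11, rose from 126 ± 11.3 to 272 ± 5.66 and 385 ± 11.2 CPM in shSC. Tubb3 and Stmn2, neuronal cytoskeleton genes that SOXC proteins activate in neurons, fell in the first step, with −3.76 (adjusted p = 1.71e-07) and −3.17 (adjusted p = 7.45e-06) in shSC while Sox4 and Sox11 rose, and Dcx rose from 0.0381 ± 0.0539 to 3.13 ± 0.0323 CPM. Between the lines none was called by edgeR on any day, with 1, 2 and 0 at an unadjusted p under 0.05 (7.26%, 19.4% and 12.2% of all genes).

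Cartilage genes that SOX9 activates together with SOX5 and SOX6 rose with them in part. Of Col2a1, Acan, Col9a1, Col9a2, Col9a3, Col11a1, Col11a2, Matn1, Comp and Hapln1, 7 were called higher and 0 lower in the first step in shSC and 8 and 0 in shCTSL (29.3% and 30.9% of all genes higher), with medians of 1.92 and 2.08. In the second step 3 were called higher and 4 lower in shSC, and 2 higher and 6 lower in shCTSL, with medians of −0.43 and −0.72, where 11.4% and 11% of all genes were higher and 12.4% lower in each line. Hapln1, a link protein of cartilage matrix, rose throughout, from 0.0762 ± 0.108 to 8.50 ± 1.84 and 39.1 ± 0.988 CPM in shSC, as Sox9 and Sox5 did. Col2a1, the main cartilage collagen, peaked at Day 2 (8.95 ± 0.0450, 76.99 ± 7.30 and 24.3 ± 4.10 CPM), and Acan, the cartilage proteoglycan, was not called in the first step (0.16, adjusted p = 0.522). Matn1, a defining marker of cartilage, was under 1 CPM on average at Day 2 and Day 4 in both lines. None of the 10 was called between the lines on any day by edgeR, with 1, 3 and 2 at an unadjusted p under 0.05 (7.26%, 19.4% and 12.2% of all genes).

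The neural crest markers, a cell type in which Sox9 acts, went different ways in shSC. Snai2, a zinc finger repressor, rose from 1.22 ± 0.323 at Day 0 to 3.39 ± 0.152 and 23.7 ± 0.133 CPM, and Ets1, which endothelial cells also express, from 2.53 ± 0.418 to 34.1 ± 2.62 and 62.9 ± 0.728 CPM, both called in each step. Foxd3, also an mESC gene, fell from 95.2 ± 4.45 to 0.669 ± 0.133 CPM over the course, and Tfap2a was not called in either step. Sox10 and Pax3 rose in the first step in shSC, from 0.207 ± 0.0303 and 0.169 ± 0.0236 to 1.21 ± 0.220 and 1.29 ± 0.410 CPM. Of the 6 crest markers tested, 4 were called higher and 1 lower in this step (29.3% and 25.3% of all genes). Tfap2b was under 1 CPM on average in every group and Sox10 under 1 CPM at Day 4 in both lines. Pax3 had 0.893 ± 0.0125 CPM in shSC and 1.52 ± 0.00662 in shCTSL at Day 4. The summed level of the 7 crest markers was 84.7 to 104 CPM in the 4 Day 0 libraries, 21.0 to 47.1 at Day 2 and 80.5 to 93.5 at Day 4. In both lines Foxd3 made up most of the Day 0 sum and Ets1 most of the Day 4 sum. Of the 6 neural progenitor markers, Fabp7 and Hes5 were under 1 CPM in every group. Their sum was 68.1 to 71.9 CPM in the Day 0 libraries. In shSC it was 122 to 125 at Day 2 and 135 to 143 at Day 4, and in shCTSL 135 to 159 and then 118 to 128.

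The genes whose levels ran most like each SOX gene were taken by Pearson r of log2 CPM over the 12 libraries, which fall into 3 days and share their depths and scaling. Sox2 was followed by H2-M5 (r = 0.999) and Mcm3 (0.997), a part of the replicative helicase. Sox15 was followed by Chaf1b (0.993), a chromatin assembly factor subunit, Rcor2 (0.989) and Notum (0.988), and Sox3 by Sp8 (0.994), a neural zinc finger factor, and Il4ra (0.991). Sox4 ran with Maged1, Cmtm8 and Hoxa5 (0.998 each), Sox11 with Ptger1 (0.999), Dchs1 and Atat1 (0.998 each), and Sox12 with Kctd15 (0.987) and Kcnk2 (0.965). Sox9 ran with Zfp9 and Ednra (0.996 each), Sox5 with Rbm46, Setbp1 and Arhgap28 (0.996 each), and Sox18 with Slc17a5 (0.991), Prkch (0.989) and Creg2 (0.988). Sox21 had the weakest likeness, with Tbc1d19 (0.928), Cdc42 (0.874) and Lrrc28 (0.867). With 6 groups, a high r describes a shared course over days and lines.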

How the data were processed

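RNA-seq counts of 12 libraries were used, 2 for each of 6 groups taken from the sample titles. Per the labels and methods, the authors selected poly(A) RNA, made directional libraries, aligned reads to mm9 with STAR 2.3.0e, dropped alignments of mapping quality under 10 with SAMtools 0.1.19 and counted fragments per RefSeq gene with featureCounts 1.6.2, depositing unnormalized counts for 24495 genes. The counting's strand setting is, in the sources used here, not given. The study calls its replicates biological, and whether they are separate cultures is not stated, so p-values measure the spread between these libraries.

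In R 4.3.3, edgeR 4.0.16 was run on genes kept by filterByExpr (minimum count 10), with TMM factors and 1 quasi-likelihood fit of 12 libraries (6 residual degrees of freedom). Benjamini-Hochberg adjustment ran over 15532 genes. The SE is the size of the log2 fold change over the square root of F. The fit was tested on simulated data. Alternatives were RLE factors, DESeq2 1.42.0, limma-voom (limma 3.58.1) with library weights, no filter (22689 genes), 1 CPM in 2 libraries (14655 genes), only the libraries compared, other fold cutoffs, a replicate block, length offsets (15186 genes) and omission of libraries.

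Gene positions and exon lengths come from GENCODE M1 on mm9, promoters from RefSeq starts placed on mm9 by sequence, and motif matches were counted on both strands. Counting intervals are exact at 95% and cover counting error only, with 3 counts over a group as the limit for a count of 0. Named are the 10 genes, Ctsl, the members of the lists of other SOX genes, partner factors, composite site genes, neural and cartilage genes that were called or at the highest level, and for each SOX gene the 3 genes of highest r, without predicted loci, of which 4 in all are not reported here. The genes, lists and markers were chosen with earlier results of these data known, and nothing is supported by that choice. ChIP-seq and proteomic data of the study were not analysed here. Figures were drawn in Python 3.11.15 with pandas 2.3.3, numpy 2.4.6 and matplotlib 3.10.9.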

Additional observations from a re-analysis of the deposited data

How the results depend on the processing

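Numbers of SOX genes called in the comparisons between days moved by at most 1.5 times under all alternatives run, except for Day 4 against Day 2 in shSC, where a log2 fold change of at least 1.5 left 2 (Sox3 and Sox5). In shCTSL the same cutoff left Sox2, Sox3, Sox5 and Sox9 for Day 4 against Day 2. Between the lines the numbers were small and moved. The share of all genes called is not given for each alternative, so these numbers are no result about the SOX genes. At Day 0 the 0 became 2 in a fit of only the libraries compared or without both shCTSL Day 2 libraries (Sox18 and Sox21), and 1 with limma-voom (Sox21). At Day 2 it became 2 with DESeq2 or no filter on low counts (Sox9 and Sox18), and 1 with offsets for exonic length (Sox18). At Day 4 it became 1 (Sox5) in a fit of only the libraries compared, without both shCTSL Day 2 libraries and with limma-voom. The 1 gene of the mean over the days, Sox18, became 0 with a log2 fold change of at least 1.5. Leaving out 1 library at a time gave 0 to 2 genes at Day 0, 0 to 4 at Day 2, 0 to 1 at Day 4, 0 to 1 in the mean over the days, 0 to 3 for the interaction of Day 2 against Day 0 and 0 to 2 for that of Day 4 against Day 2. Except in the mean, the numbers above 0 came from leaving out an shCTSL Day 2 library, and in the mean the 1 stood only without one of these.

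Samples of the same replicate number deviated together (r over 0.1) in 2 of 15 pairs of groups, with r from −0.465 to 0.257, and the replicates were not treated as paired. Both of these extremes involve the unlike shCTSL Day 2 pair, so the r cannot show that no batch was shared. With a replicate block the mean over the days had 0 called SOX genes (Sox18, adjusted p = 0.0771), and the block changed no other call.

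Of 2918 values of single genes under an alternative, 2806 kept their direction and side of the threshold, 37 lost a call, 43 gained one and 32 changed sign, over 19 of 130 results. Among those 19 the values were −0.26 to 0.16, other than those of Sox5. With no filter on low counts Sox11 at Day 0 between the lines was −0.01. With offsets for exonic length the Day 2 values were −0.01 for Sox3, −0.07 for Sox11 and −0.23 for Sox15, and the interaction of Day 2 against Day 0 for Sox11 was −0.07. With limma-voom Sox21 at Day 2 was 0.01. Leaving out 1 library at a time gave, for shSC, −0.51 to 0.03 (Day 2 against Day 0), −0.07 to 0.42 (Day 4 against Day 2) and −0.30 to 0.18 (Day 4 against Day 0) for Sox21, and −0.41 to 0.21 for Sox4 in shCTSL (Day 4 against Day 2). Between the lines it gave −0.07 to 0.10 for Sox11 at Day 0, −0.03 to 0.19 for Sox11, −0.17 to 0.32 for Sox15 and −0.28 to 0.21 for Sox21 at Day 2, −0.11 to 0.19 for Sox12 and −0.17 to 0.08 for Sox18 at Day 4, and −0.19 to 0.33 for Sox9 in the mean. For the interactions of Day 2 against Day 0 it gave −0.15 to 0.02 for Sox2, −0.55 to 4.32 for Sox5 and −0.04 to 0.17 for Sox11. For Day 4 against Day 2 it gave −0.49 to 0.15 for Sox4 and −0.23 to 0.07 for Sox12, and for Day 4 against Day 0 −0.88 to 3.97 for Sox5 and −0.44 to 0.16 for Sox15. The values of Sox5 against Day 0 depend on 3 counts in shSC Day 0 replicate 2 and are no estimate of size. The causes of the other changes were not tested.

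With 2 libraries a group the SD is imprecise. At Day 0 the depth gives 0 to 3 counts of Sox5 and 2 to 7 of Sox9 per library, and the counting interval of the Sox9 ratio between the lines reaches 7.02.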
